A study of Rattus norvegicus with 9 samples.

Results

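The nuclear receptors are a family of transcription factors, most of which carry a zinc finger DNA-binding domain and a pocket for a small lipophilic ligand such as a steroid, a bile acid, an oxysterol, a fatty acid or a thyroid hormone. In liver they set the rates of bile acid synthesis, drug metabolism, lipid handling and gluconeogenesis, and many of them bind DNA as a pair with a retinoid X receptor. A list of 34 genes of the family, without the Rev-erbs of the circadian clock, was followed here in rat liver. A gene was matched where a probe set of the array carried its symbol alone, and the probe set with the highest mean log2 signal stood for it. This gave 33 of the 34 genes, of 14217 genes with such a probe set in all, and Nr6a1 was not analysed here for want of one.

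The samples were livers of 9 Wistar rats, labelled male and of 180 to 220 g, each on its own one-colour Affymetrix array. The 3 groups were a drug group labelled 7-P, a model group and a control group, with 12 rats each among the 36 of the study, of which 3 per group were arrayed. The sources used here do not say how the model rats were made, what 7-P is, or whether the drug rats also received the model treatment. Values are log2 signals after quantile normalization between arrays, and a difference of 1 is a doubling. A level is not set against that of another gene, because probe sets differ in how brightly they bind.

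Of the 33 genes, 28 passed a filter on dim signals, set at the 40th percentile of the mean signal, a log2 value of 2.82. The other 5, Nr2c2, Nr2f1, Ppara, Vdr and Esr1, lay below it and were not tested. The fit was made in limma over all 18625 probe sets that passed, and a probe set was called at a Benjamini-Hochberg adjusted p under 0.05. Differences come with their standard error (SE). Unadjusted p-values set a difference against the spread within groups, which the fit shares over the 3 groups and moderates over all probe sets. With 3 rats a group they rest on few animals.

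Some arrays stood apart or went against their label. The X-inactivation RNA Xist, normally made by female cells, lay at 3.05 in drug 3 and 2.65 in control 2, and the other 7 arrays lay at 8.05 or above. Eif2s3y, a Y-linked gene, was at 7.17 in drug 3 and 6.99 in control 2 and at 2.53 or below elsewhere, so on these 2 genes 7 of the 9 arrays labelled male had the pattern usual in females. The sex-biased liver transcripts Cyp2c11 and Cyp2c12 split the arrays in the same way. Cyp2c11 was at 12.11 in drug 3 and 11.275 in control 2 and at 5.225 or below elsewhere. Cyp2c12 was at 8.19 in drug 3 and 5.82 in control 2 and at 11.859 or above elsewhere. Uty, also Y-linked, did not follow this pattern. It was lowest in drug 3 at 5.71 and control 2 at 6.19, and lay at 6.54 to 6.80 elsewhere. The 2 arrays low in Xist were a drug and a control liver, while the model livers had Xist at 9.62, 9.91 and 10.89. The Xist pattern was thus uneven between model livers and the other groups. Its part in the differences was not tested beyond leaving out control 2 and drug 3. The ratio of the 3' to the 5' signal of Gapdh, a reading of how far the RNA was intact, was 1.31, 9.20 and 8.71 for drug livers, 4.09, 12.7 and 9.77 for model livers, and 1.52, 3.14 and 3.07 for control livers. The same ratio of beta-actin was 3.985, 11.48 and 8.63 for drug, 12.8, 10.73 and 7.31 for model, and 4.225, 8.41 and 7.59 for control livers. The 2 ratios ordered the arrays differently, and only the Gapdh ratio was used in a fit. The liver identity held, since all 6 hepatocyte markers passed the filter with medians of 0.02, -0.01 and 0.08 for drug minus model, model minus control and drug minus control, while 0 of 3 adipocyte and 0 of 3 skeletal muscle markers passed it.

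In drug livers the small heterodimer partner Nr0b2 was 3.82-fold and the constitutive androstane receptor Nr1i3 3.06-fold above model livers, the largest differences in that comparison among the 28 tested genes on the probe sets that stood for them. A dimmer probe set of Nr2f6 gave a larger log2 difference there, 2.09 beside 1.93 for Nr0b2. Nr0b2 lacks a DNA-binding domain and represses other receptors; the bile acid receptor Nr1h4 induces it, and it lowers bile acid synthesis. In model livers the liver X receptor beta Nr1h2 and the orphan receptor Nr4a3 lay below the control livers. No gene of the list passed the adjusted threshold in any of the 3 comparisons, and neither did any other probe set.

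The promoter of Nr0b2 is shown because this gene had the largest difference among the 28 tested genes on the probe sets that stood for them, and that of Nr1i3 for comparison. Each window holds 250 bases before and 50 after the gene's start, 5′ to 3′, from RefSeq on GRCr8, at chr5:151062910-151063209 (+ strand) for Nr0b2 and chr13:86165170-86165469 (+ strand) for Nr1i3. Capitals mark TCAAGG, the core of the sites that Nr5a2 and its relatives bind as single molecules, searched on both strands.
Nr0b2: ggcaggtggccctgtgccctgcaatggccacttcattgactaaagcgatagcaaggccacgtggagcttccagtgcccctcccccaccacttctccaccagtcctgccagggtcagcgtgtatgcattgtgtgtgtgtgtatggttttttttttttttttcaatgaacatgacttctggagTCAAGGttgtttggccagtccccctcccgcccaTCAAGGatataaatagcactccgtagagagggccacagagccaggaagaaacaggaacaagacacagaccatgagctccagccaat
Nr1i3: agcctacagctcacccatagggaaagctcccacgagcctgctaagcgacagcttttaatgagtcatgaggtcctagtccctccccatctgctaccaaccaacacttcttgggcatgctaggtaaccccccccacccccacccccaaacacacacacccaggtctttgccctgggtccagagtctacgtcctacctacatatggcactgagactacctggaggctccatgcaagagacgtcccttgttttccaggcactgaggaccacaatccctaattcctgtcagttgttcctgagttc
The Nr0b2 window held the core at -69 and -36 from the start, and the Nr1i3 window held none. The core was chosen after the Nr0b2 sequence was seen, and it occurs in 14.8% of all 33469 windows and in 4 of the 34 windows of 29 listed genes. The hexamer AGGTCA, also on both strands, occurred in the windows of Nr5a2 and Rarg alone among the listed genes and in 16.2% of all windows. The longer form TCAAGGTCA, which contains the other 2 motifs, was in 0 of the 34 and in 0.433% of all. A match is a description of these letters and shows no binding.

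Nr0b2 had log2 signals of 6.89, 6.29 and 7.65 in drug livers, 5.50, 4.85 and 4.67 in model livers and 5.10, 5.77 and 2.94 in control livers. Every drug liver lay above every model and every control liver. The difference of drug minus model was 1.93 (SE 0.652), a 3.82-fold level (unadjusted p = 0.0141, limma adjusted p = 0.998). Drug minus control gave 2.34 (SE 0.652), or 5.06-fold (unadjusted p = 0.00495, limma adjusted p = 0.676). Control 3 was the lowest array, and without it the drug minus control difference of Nr0b2 was 1.503, with every drug liver above both remaining control livers. Model livers did not stand apart from control livers, with a difference of 0.40 (SE 0.652), which turned to -0.43 without control 3.

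Nr1i3, the receptor that answers phenobarbital-like compounds, was at 5.11, 5.15 and 6.77 in drug livers, 3.59, 3.46 and 5.14 in model livers and 4.07, 5.51 and 3.99 in control livers. Drug and model livers overlapped narrowly, since model 3 at 5.14 exceeded drug 1 at 5.11. Nr1i3 differed by 1.62 (SE 0.623) in drug minus model (unadjusted p = 0.0267, limma adjusted p = 0.998). The highest array of the drug group and that of the control group were drug 3 and control 2, the arrays low in Xist, and Nr0b2 was also highest within its group on both. Without these arrays Nr1i3 differed by 1.07 in drug minus model (limma unadjusted p = 0.0803) and Nr0b2 by 1.58 (limma unadjusted p = 0.0339). For drug minus control the same omission gave Nr0b2 2.57 (limma unadjusted p = 0.00531).

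The pregnane X receptor Nr1i2, which senses drugs and bile acids and induces Cyp3a enzymes, had 7.03, 7.46 and 7.44 in drug livers, against 6.88, 6.35 and 6.48 in control livers. Each drug liver was above each control liver, and the model livers at 6.80, 6.86 and 7.25 spanned the space between. Drug minus control for Nr1i2 was 0.74 (SE 0.251, unadjusted p = 0.0149, limma adjusted p = 0.683), and drug minus model was 0.34 (SE 0.251). Without control 2 and drug 3 the drug minus control value of Nr1i2 was 0.56 (limma unadjusted p = 0.138). Unnormalized, Nr1i2 differed by 0.34, beside a median of -0.36 over all probe sets. The bile acid receptor Nr1h4 itself overlapped between groups, with signals from 7.87 to 9.20 over all arrays and a difference of -0.23 (SE 0.331) in drug minus model, with a 95% interval from -0.97 to 0.51.

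**Figure D1:**
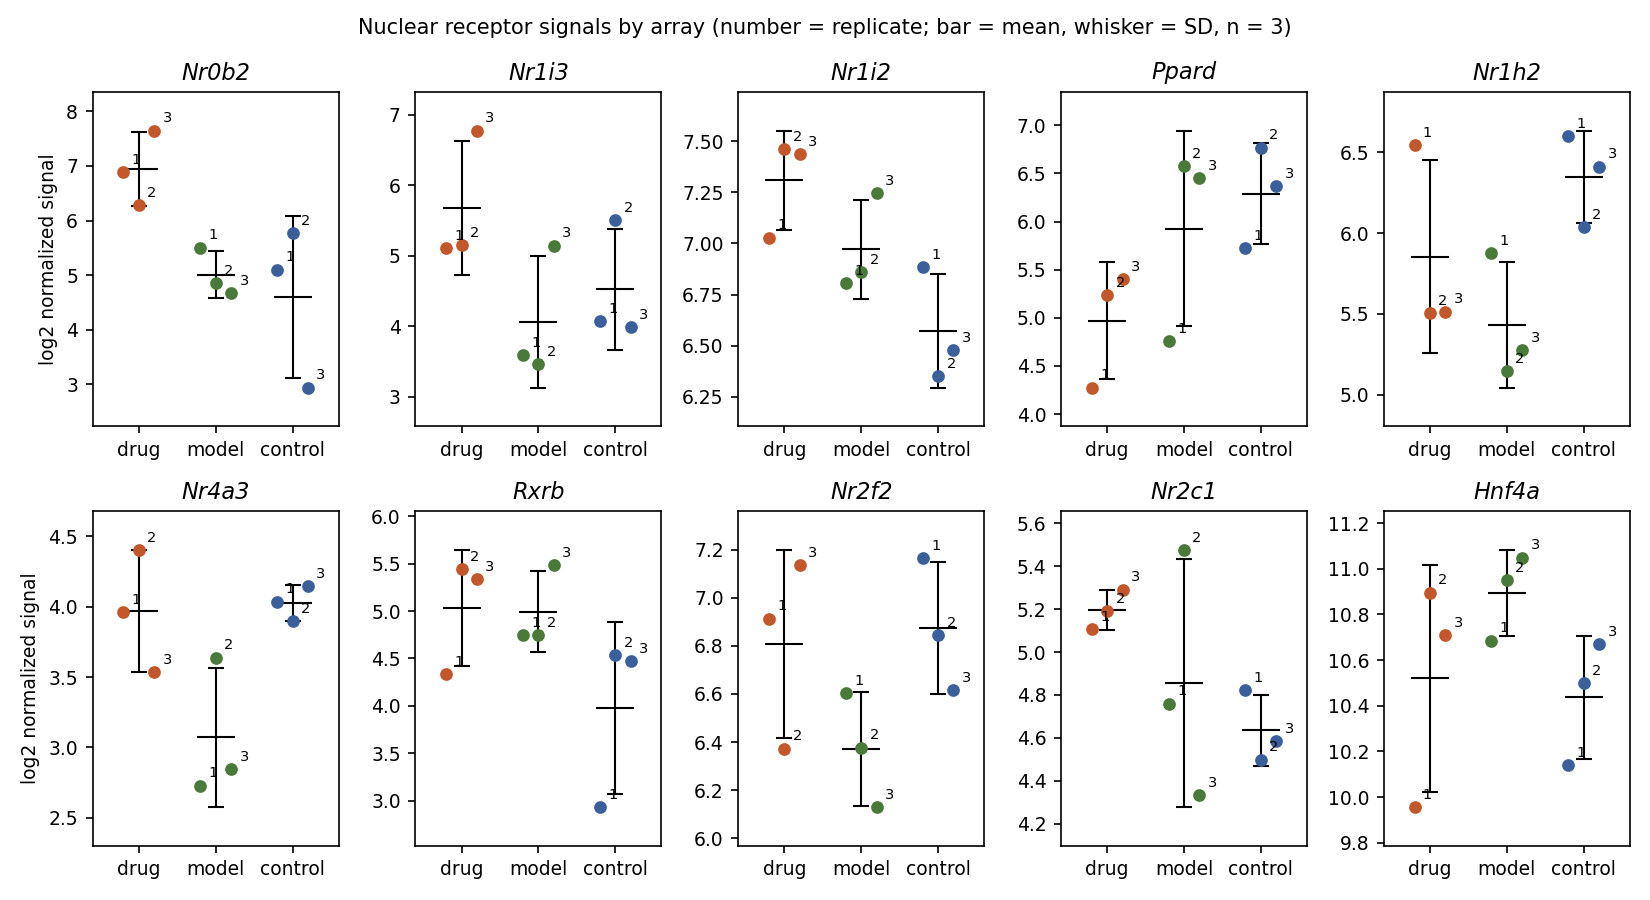
Log2 normalized signal of 10 nuclear receptors in drug, model and control livers, 1 point per array with its replicate number, horizontal bar at the mean and whiskers of 1 SD (n = 3). The 3 drug livers lie above all other arrays for Nr0b2, and drug 3 is the highest array for both Nr0b2 and Nr1i3.

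Counted over the 28 tested genes, model minus control gave 0 past the adjusted threshold, where 0% of all probe sets passed. At an unadjusted p under 0.05 there were 2 genes, both lower, where 12.1% of all probe sets (6.51% higher and 5.54% lower) met the same mark. Groups without overlap numbered 5 of 28 genes (17.9%), 2 higher and 3 lower, against 22.6% of all probe sets (11.8% higher and 10.9% lower), so the share of the list did not exceed the background. The median of the list was -0.04, beside 0.02 for all probe sets, and 14 genes were above 0 and 14 below, where 51.1% of all probe sets were above 0.

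For drug minus model there were 3 genes at an unadjusted p under 0.05, all higher (Nr0b2, Nr1i3 and Nr4a3), where 3.28% of all probe sets (1.47% higher and 1.80% lower) were, and 0% of all probe sets passed the adjusted threshold. Only 1 of the 28 genes, Nr0b2, had no overlap on the probe set that stood for it, a share of 3.57% against 8.05% of all probe sets (3.35% higher and 4.70% lower). The median was 0.04, beside -0.02 for all, and 17 genes were above 0, where 47.9% of all probe sets were. For drug minus control, 2 genes were higher and 1 lower at an unadjusted p under 0.05, where 7.22% of all probe sets were (4.19% higher and 3.03% lower). There 4 genes (14.3%), 3 higher and 1 lower, had no overlap, against 12.5% of all probe sets (6.05% higher and 6.49% lower). The adjusted threshold was passed by 0% of all probe sets there too. The medians were 0.05 for the list and -0.02 for all, and 15 genes were above 0, where 48.5% of all probe sets were. Each group enters 2 of the comparisons, so their values are not independent.

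**Figure D2:**
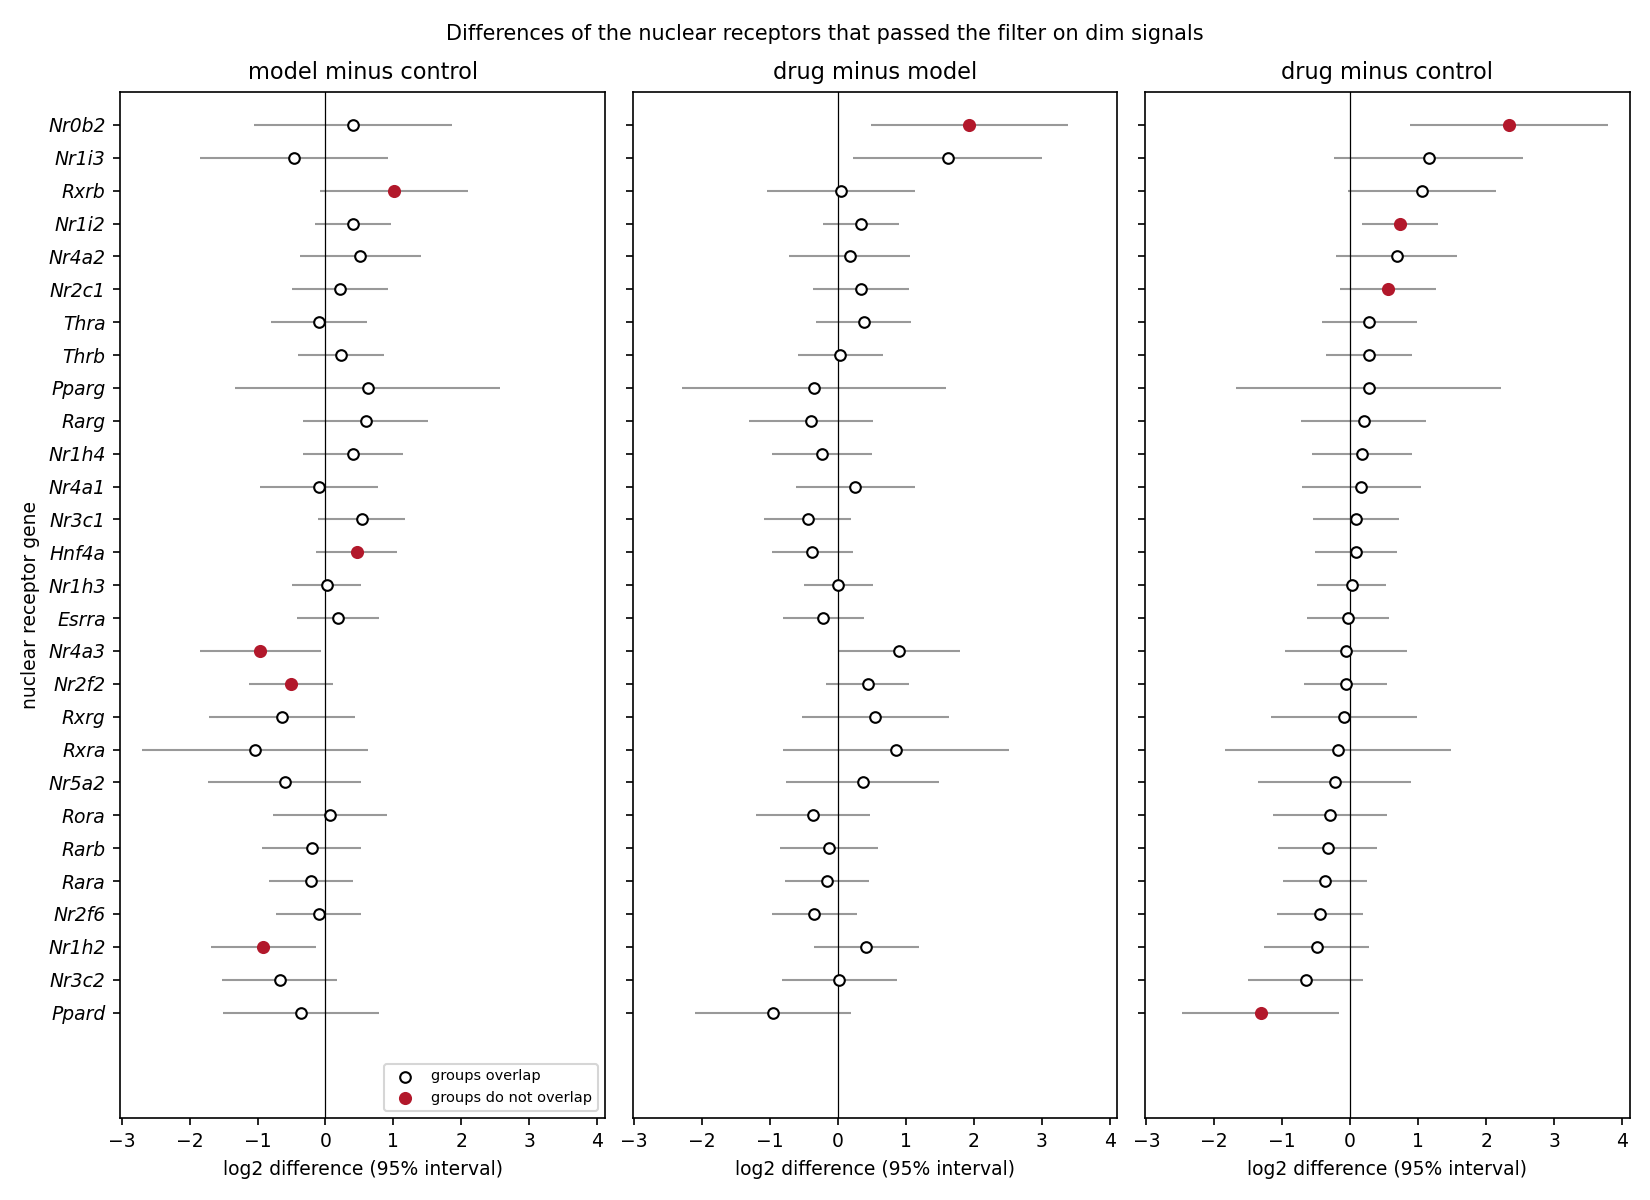
Log2 difference (horizontal axis, with the 95% interval of the limma fit) of the 28 nuclear receptors tested, in model minus control, drug minus model and drug minus control. Filled points mark genes whose 2 groups of 3 arrays do not overlap, 5, 1 and 4 in the 3 panels; the list lies around 0, with Nr0b2 at 2.34 and Ppard at -1.32 as its ends in drug minus control.

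Among the lipid sensors, Nr1h2 was lower in model livers. The liver X receptors bind oxysterols and induce cholesterol efflux and lipogenic genes. Nr1h2 had 5.87, 5.15 and 5.28 in model livers and 6.60, 6.04 and 6.41 in control livers. Each model liver was below each control liver, by -0.92 on average (SE 0.348, unadjusted p = 0.0250, limma adjusted p = 0.395). Drug livers had 6.54, 5.51 and 5.51, with drug 1 at the control level and the others at the model level. Nr1h2 fell with the Gapdh ratio inside the groups, by 0.39 per doubling of the ratio (SE 0.0898, limma adjusted p = 0.0204), and with a term for that ratio the model minus control value was -0.25 (limma unadjusted p = 0.337). Its partner by function, the liver-rich alpha form Nr1h3, ranged only from 8.03 to 8.59 over all 9 arrays, with a difference of 0.02 (SE 0.227) in model minus control and a 95% interval from -0.49 to 0.52.

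Ppard, a fatty acid receptor expressed widely, was at 4.27, 5.24 and 5.40 in drug livers, against 5.73, 6.77 and 6.37 in control livers. All drug livers lay below all control livers, and the model livers at 4.76, 6.58 and 6.45 were split, with model 1 among the drug values. Drug minus control for Ppard was -1.32 (SE 0.517, unadjusted p = 0.0291, limma adjusted p = 0.683), and drug minus model was -0.96 (SE 0.517). Its signal went up with the Gapdh ratio, by 0.58 per doubling (SE 0.141, limma adjusted p = 0.0243), and with the Gapdh term drug minus control was -1.87 (limma unadjusted p = 0.000255). Without control 2 and drug 3 the value for Ppard was -1.29 (limma unadjusted p = 0.0855). A second Ppard probe set lay below the filter.

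The main fatty acid receptor of liver, Ppara, was among the dim genes on this array, with 1.75, 0.94 and 1.85 in drug livers, 1.02, -0.24 and 0.07 in model livers and 2.95, -0.04 and -0.32 in control livers. At this level the order of arrays carries no weight, and the probe set was not tested. Pparg, the receptor of fat cells, passed the filter narrowly and ranged from 0.84 in drug 3 to 4.45 in drug 1. The spread within the drug group, an SD of 1.91, exceeded each of its differences, the largest of which was 0.62 (SE 0.874) in model minus control.

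Of the retinoid X receptors, the shared dimer partners, Rxrb was higher in model livers and Rxra spread widely. Rxrb had 4.75, 4.75 and 5.48 in model livers, against 2.93, 4.53 and 4.47 in control livers, and drug livers had 4.33, 5.44 and 5.33. Model and control livers did not overlap, at a difference of 1.01 (SE 0.488, unadjusted p = 0.0649, limma adjusted p = 0.427). Control 1 was far below the other control livers, and without it Rxrb differed by 0.49 (limma unadjusted p = 0.270). With the Gapdh term the value for Rxrb was 0.25 (limma unadjusted p = 0.601).

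Rxra was at 6.01, 3.21 and 3.96 in drug livers, 3.53, 3.77 and 3.32 in model livers and 5.94, 3.59 and 4.20 in control livers. Drug 1 and control 1, the arrays with the lowest Gapdh ratios, had the high values, and the Rxra signal fell by 0.80 per doubling of the ratio (SE 0.225, limma adjusted p = 0.0416). The difference of -1.04 (SE 0.745) in model minus control turned to 0.33 with the Gapdh term. Rxrg ranged from 5.28 to 7.56, with model 1 as the low array, and its groups overlapped in all 3 comparisons on this probe set. A dimmer Rxrg probe set had 4.45, 4.28 and 4.53 in drug livers, above the 4.18, 4.10 and 3.87 of model livers and the 3.07, 3.79 and 3.95 of control livers. On it Rxrg differed by 0.81 in drug minus control (limma unadjusted p = 0.0363), and by 0.45 in model minus control, where the brighter probe set gave -0.64.

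The receptors for retinoic acid, thyroid hormone and vitamin D that pair with them overlapped between groups in every comparison on the probe sets that stood for them. Rara ranged from 5.01 to 5.89, Rarb from 6.99 to 8.21 and Rarg from 3.19 to 4.86 over the 9 arrays. The thyroid hormone receptors Thra and Thrb ranged from 3.89 to 4.83 and from 7.52 to 8.40. The largest difference of these 5 genes on those probe sets was 0.59 (SE 0.412), for Rarg in model minus control, with a 95% interval from -0.33 to 1.51. Of 2 further tested probe sets of Thrb, the brighter had 5.90, 6.23 and 5.94 in model livers, below the 6.77, 6.39 and 6.85 of drug livers and the 6.46, 6.51 and 6.85 of control livers, so that Thrb read differently by probe set. A second Thra probe set had 3.79, 3.93 and 4.06 in drug livers, below the 4.50, 4.91 and 5.08 of control livers, with model livers at 3.93, 4.46 and 4.48. Drug minus control for Thra was -0.91 on it (limma unadjusted p = 0.0133), against 0.28 (SE 0.314) on the probe set that stood for the gene. Vdr, the vitamin D receptor, was dim, at -0.55 to 3.19.

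Among the orphan receptors, Hnf4a, which holds the hepatocyte gene programme, gave opposite answers on its 3 probe sets. The brightest had 10.69, 10.95 and 11.05 in model livers, against 10.14, 10.50 and 10.67 in control livers, and 9.96, 10.90 and 10.71 in drug livers. Every model liver was above every control liver, by 0.46 (SE 0.269, unadjusted p = 0.119), but this turned to -0.34 without normalization, to -0.01 once arrays were centred on their medians and to -0.05 with a Gapdh term. The other Hnf4a probe sets differed by -0.96 and -1.02 in model minus control. On these, drug 1 was at 7.38 and 6.96 and control 1 at 7.34 and 7.00, while the other 7 arrays lay at 5.73 or below except drug 3, at 5.92 on the first. The slope on the Gapdh ratio was 0.30 (SE 0.0742) for the bright Hnf4a probe set and -0.55 (SE 0.172) and -0.65 (SE 0.160) for the others.

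Nr4a3, an early response receptor without a known natural ligand, had 2.73, 3.64 and 2.85 in model livers, against 4.04, 3.90 and 4.15 in control livers. The model livers were all below the control livers, by -0.96 (SE 0.402, unadjusted p = 0.0384, limma adjusted p = 0.407). Drug livers had 3.96, 4.41 and 3.54, and drug minus model was 0.90 (SE 0.402, unadjusted p = 0.0497, limma adjusted p = 0.998), with drug 3 below model 2. 2 of the model values lay near the filter level, so the size for Nr4a3 is not exact, and with 16 units added to each signal it was -0.39 in model minus control and 0.37 in drug minus model. Its relatives Nr4a1 and Nr4a2 ranged from 3.03 to 4.29 and from 2.81 to 4.28 and overlapped in all comparisons.

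Nr2f2, also called COUP-TFII and expressed in endothelial and stromal cells as well as hepatocytes, was at 6.60, 6.38 and 6.13 in model livers, against 7.16, 6.84 and 6.62 in control livers. The groups were separated by the narrow step between model 1 and control 3, at a difference of -0.50 (SE 0.277, unadjusted p = 0.0985), and the drug livers at 6.91, 6.37 and 7.13 spanned both. The 2 other tested probe sets of Nr2f2 gave 0.17 and 0.67 for model minus control, and the mean of all gave 0.11. In whole tissue, fewer cells of a type and less RNA per cell cannot be told apart.

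Nr2c1, the testicular receptor 2, was at 5.11, 5.19 and 5.29 in drug livers, against 4.82, 4.50 and 4.59 in control livers, with no overlap and a difference of 0.56 (SE 0.317, unadjusted p = 0.108). Nr2f6 ranged from 6.65 to 7.69 on its brightest probe set with -0.10 (SE 0.282) in model minus control, while a dimmer probe set of Nr2f6 gave -2.61, with 0.39, 2.597 and 3.16 in model livers and 5.33, 4.15 and 4.49 in control livers. On that dimmer probe set drug livers had 5.42, 3.81 and 3.20, narrowly above all model livers. Drug minus model was 2.09 on it (limma unadjusted p = 0.024), against -0.35 (SE 0.282) on the brightest. Nr5a2, the liver receptor homolog that drives bile acid synthesis genes, ranged from 5.10 to 7.28 and fell with the Gapdh ratio on all 3 of its probe sets, by 0.59, 0.62 and 0.66 per doubling. Its difference of -0.60 (SE 0.506) in model minus control turned to 0.40 with the Gapdh term. Rora, a clock-linked receptor, ranged from 4.36 to 5.83 and Esrra, a regulator of mitochondrial genes, from 4.89 to 5.63, both with overlap throughout.

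The related COUP-TFI gene Nr2f1 also lay below the filter. It had 0.03, -0.07 and -0.56 in drug livers, 3.88, 3.15 and 3.58 in model livers and -1.29, 3.25 and -0.21 in control livers. All model livers were above all drug livers, while control 2 stood at the model level and the other control livers at or below the drug level. The drug values are near the bottom of the signal range, so no fold is given and Nr2f1 was not tested. The share of such dim probe sets without overlap was not counted, so this separation is only described. Nr2c2 was also dim, from -0.07 to 3.02.

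**Figure D3:**
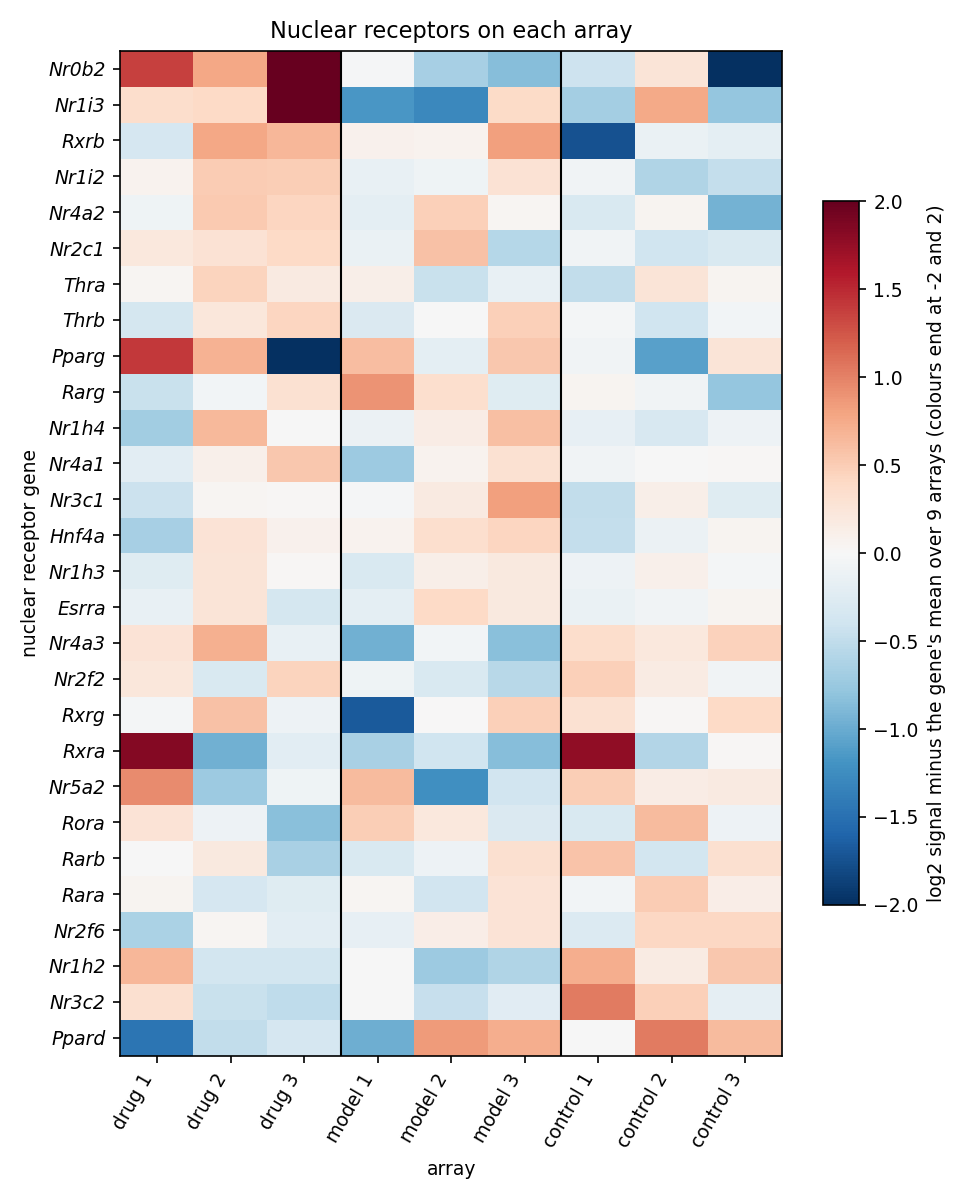
Log2 signal of the 28 tested nuclear receptors (rows) on each of the 9 arrays (columns, drug, model and control), minus the gene's mean over the arrays. Nr0b2 is above its mean on all 3 drug arrays, and Rxra is high on drug 1 and control 1, at 6.01 and 5.94.

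The steroid receptors showed no separation between groups. The glucocorticoid receptor Nr3c1, which induces gluconeogenic genes, ranged from 7.498 to 8.82, with 0.53 (SE 0.286) in model minus control and -0.44 (SE 0.286) in drug minus model. The first of these Nr3c1 values turned to -0.13 without normalization, and the second was -0.19 without model 3. The mineralocorticoid receptor Nr3c2 ranged from 3.99 to 5.54, with -0.68 (SE 0.379) in model minus control, which was -0.10 with the Gapdh term. The oestrogen receptor Esr1 was dim, from -1.69 to 3.40, with its highest values on drug 1 and control 1.

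The probe sets differed in how they followed RNA quality. Of the 28 genes, 5 (17.9%) followed the Gapdh ratio inside the groups at a limma adjusted p under 0.05, 2 upward (Hnf4a and Ppard) and 3 downward (Nr1h2, Nr5a2 and Rxra), where 14.3% of all probe sets did. The direction of this slope was also that of the model minus control difference in 18 of 28 genes (64.3%), against 68.5% of all probe sets. The same held for 15 genes (53.6%) in drug minus model, against 42.1%, and for 21 (75%) in drug minus control, against 65.5%. Nr0b2 had a slope of -0.14 (SE 0.290) and, with the Gapdh term, differed by 1.82 in drug minus model (limma unadjusted p = 0.0224) and by 2.48 in drug minus control (limma unadjusted p = 0.00524). Of 7 genes with several tested probe sets, 4 had probe sets of opposite sign in model minus control, and 5 in each of the other comparisons. The part of the Gapdh ratio in the differences of the genes that follow it was not tested beyond the term in the fit.

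**Figure D4:**
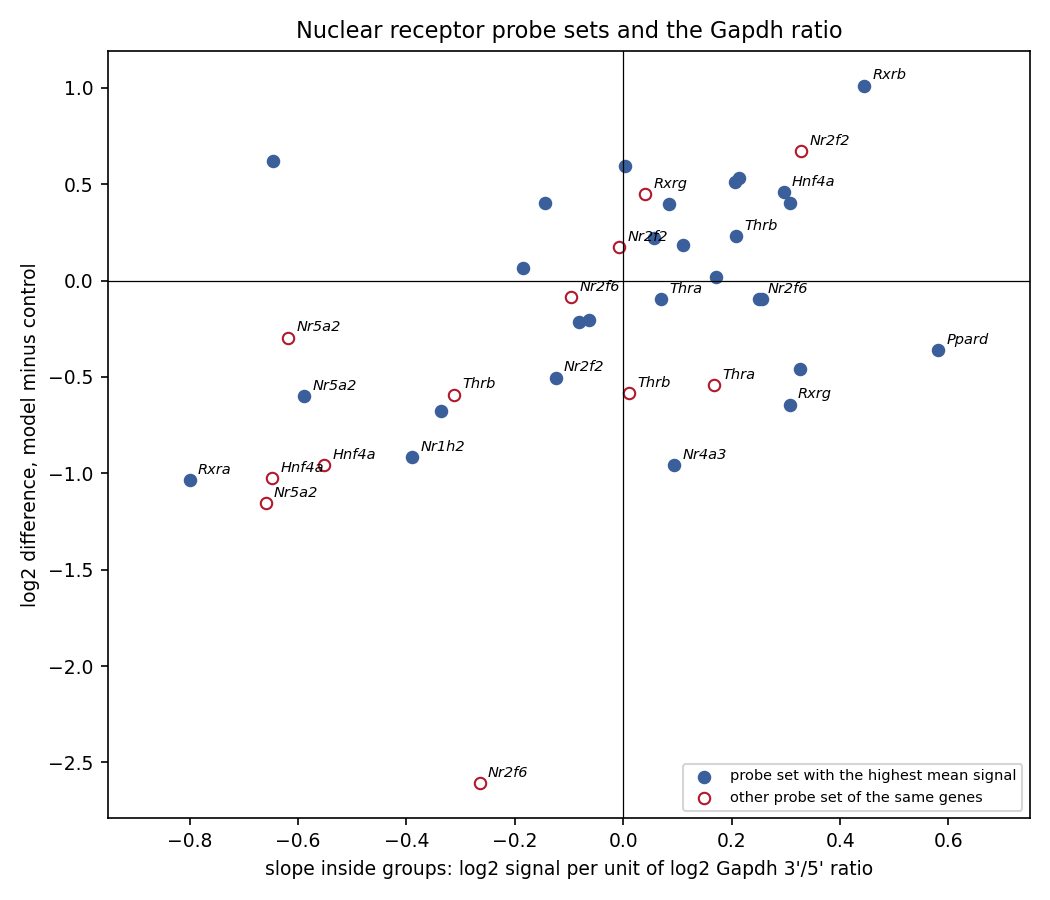
Each tested probe set of the nuclear receptors, with its slope on the log2 Gapdh 3' to 5' ratio inside groups (horizontal axis, log2 signal per doubling) and its log2 difference in model minus control (vertical axis). Filled points are the probe set with the highest mean signal of a gene and open points its others. The bright Hnf4a probe set lies at 0.30 and 0.46, and its other probe sets lie at -0.55 and -0.96 and at -0.65 and -1.02.

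The partners and targets of these receptors were described by lists of known genes, and 0 genes of any of these lists passed the adjusted threshold. Of 14 tested coregulators, which receptors recruit to open or close chromatin, 11 were above 0 in model minus control with a median of 0.17 (8 and 0.03 with the Gapdh term), and 5 in drug minus model with a median of -0.09. Nrip1, a corepressor of ligand-bound receptors, had 5.51, 5.92 and 5.78 in drug livers, against 5.92, 6.78 and 6.83 in model livers. Every drug liver lay below every model liver, narrowly between drug 2 and model 1, and Nrip1 differed by -0.78 (SE 0.325, unadjusted p = 0.0383, limma adjusted p = 0.998). The coactivator Ppargc1a was 1.87 (SE 0.809) above control in drug livers (unadjusted p = 0.0433, limma adjusted p = 0.683). Control 2 at 0.61 was its low array, and without control 2 and drug 3 the value for Ppargc1a was 1.001.

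Among 7 tested genes of the bile acid axis, 6 were above 0 in model minus control (median 0.25) and 2 in drug minus model (median -0.08). Cyp8b1, the sterol 12-alpha hydroxylase that Nr0b2 is known to repress, was at 10.02, 9.50 and 8.60 in drug livers, against 10.19, 10.19 and 10.30 in model livers and 10.03, 10.47 and 9.95 in control livers. Drug livers lay below model livers without overlap, at -0.85 (SE 0.326, unadjusted p = 0.0260, limma adjusted p = 0.998), and without drug 3 the difference of Cyp8b1 was -0.47 (limma unadjusted p = 0.104). Cyp7a1, the rate-limiting enzyme of bile acid synthesis and another known target of that repression, overlapped between drug and model livers, with 10.11, 10.91 and 11.49 in drug livers, 10.86, 10.20 and 11.64 in model livers and 9.45, 10.66 and 9.06 in control livers. It was 1.17 (SE 0.50) above control in model livers (unadjusted p = 0.0409, limma adjusted p = 0.409) and 0.68 above with the Gapdh term, with overlap through control 2.

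The targets of the liver X receptors lay on both sides of 0, with 7 of 10 above 0 in model minus control (median 0.23, or 0.02 without control 2 and drug 3) and 4 of 10 in drug minus model (median -0.05). Pltp, the phospholipid transfer protein, had 6.21, 7.41 and 6.84 in drug livers, 8.70, 8.92 and 7.87 in model livers and 6.66, 7.51 and 7.17 in control livers. The model livers stood above both other groups, and drug minus model for Pltp was -1.68 (SE 0.385, unadjusted p = 0.00143, limma adjusted p = 0.998). Srebf1, the lipogenic regulator, had 9.35, 9.63 and 10.75 in drug livers, 8.19, 8.62 and 9.07 in model livers and 8.48, 8.95 and 9.17 in control livers. Here the drug livers stood above both other groups, by 1.28 (SE 0.379) over model livers (unadjusted p = 0.00703, limma adjusted p = 0.998), so 2 targets of the same receptors lay on opposite sides.

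Of 17 tested targets of Ppara, 13 were below 0 in model minus control, with a median of -0.58 beside 0.02 for all probe sets. With the Gapdh term 11 were below 0 and the median was -0.19, and without control 1 and drug 1, the arrays with the lowest Gapdh ratios, it was -0.35 with 12 below 0. The array scores of this list (mean log2 signal about each gene's mean) were 0.30, -0.27 and -0.59 in drug, -0.38, 0.13 and -0.09 in model and 0.54, 0.03 and 0.33 in control livers. Plin2, which coats lipid droplets, had 7.66, 8.80 and 8.28 in model livers, against 9.49, 9.31 and 9.48 in control livers, without overlap and at -1.18 (SE 0.285, unadjusted p = 0.00202, limma adjusted p = 0.384). In drug minus control the same list had 13 of 17 below 0 and a median of -0.50, with Cyp4a3, a fatty acid hydroxylase, at -0.77 (SE 0.308, limma adjusted p = 0.683), or -0.43 without drug 3. The median of -0.50 was -0.21 with the Gapdh term. In drug minus model 8 of 17 were above 0, with a median of -0.02.

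The drug-metabolism targets of Nr1i2 and Nr1i3 had medians near 0. Of the 13 genes listed 11 were tested, and Cyp2b1 and Cyp2b2 had no probe set that carried their symbol alone. In drug minus control 8 of 11 were above 0 with a median of 0.24, and in drug minus model 6 of 11 with a median of 0.15. The array score of this list was 0.84 on drug 3, against 0.13 and -0.07 on drug 1 and drug 2. Its largest difference in drug minus model was 2.75, for Cyp3a2. That gene was at 11.59 on control 2 and 11.99 on drug 3, the arrays low in Xist, and at 5.24 or below elsewhere. Abcc3, an export pump for conjugates, had 5.29, 5.94 and 4.31 in drug livers, 4.53, 4.96 and 6.17 in model livers and 1.72, 1.92 and 4.71 in control livers. Both other groups lay above 2 of the control livers and overlapped with control 3, and Abcc3 differed by 2.40 (SE 0.788) in drug minus control and 2.43 (SE 0.788) in model minus control (limma adjusted p = 0.683 and 0.384). The control level lay near background on 2 arrays, so these sizes are not exact.

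Of 10 tested glucocorticoid receptor targets, 7 were above 0 in model minus control, with a median of 0.35 (0.12 with the Gapdh term). Fkbp5, a chaperone of that receptor, was at 5.65, 5.15 and 5.62 in model livers, against 4.02, 5.01 and 4.97 in control livers, at 0.81 (SE 0.329, limma adjusted p = 0.401) or 0.485 without control 1 and drug 1. Pck1, a gluconeogenic enzyme, was -0.70 (SE 0.224) in drug minus model, with no overlap (limma adjusted p = 0.998). Of 10 targets of Hnf4a, 9 were below 0 in model minus control, with a median of -0.20, led by the urea cycle enzyme Otc at -0.84 (SE 0.384), which was -0.23 with the Gapdh term. The 5 thyroid hormone targets had medians of -0.27 and 0.24 in model minus control and drug minus model, and only 2 genes each were tested of the retinoic acid targets (Cyp26a1 and Dhrs3) and of the nuclear receptors outside the list (Esrrb and Esrrg).

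The remaining genes with the smallest p of their list had these differences, all short of the adjusted threshold in the reported fit. In model minus control, the fatty acid desaturase Scd differed by -2.24 (SE 0.678, limma adjusted p = 0.384, or 0.0425 with the replicate number as a block) and the fatty acid oxidation enzyme Acadm by -0.87 (SE 0.363), both without overlap. The acetyltransferase Ep300 (0.75), Pck1 (0.50), Apoh (-0.33) and Dhrs3 (-0.51) also had no overlap there, while Ugt2b1 (-1.71), the bile salt pump Abcb11 (0.38), Dio1 (-0.95), Gpd2 (-0.27) and Esrrg (0.54) overlapped. In drug minus model, the clock gene Per1 differed by -1.61 (SE 0.683) but by -0.63 without drug 3, Apoc3 by 0.20 (SE 0.146) and Esrrg by -0.51 (SE 0.289), each without overlap. Overlap was present there for Ugt2b1 (2.10), Thrsp (1.04), Dio1 (0.85), Abcb1a (0.72), Dhrs3 (0.61), Apom (-0.39), Abcb4 (-0.53), Cyp26a1 (-0.59), Ep300 (-0.60), Cyp4a3 (-0.64) and Cyp4a1 (-0.89). In drug minus control, Srebf1 differed by 1.04 (SE 0.379) but by 0.62 without drug 3, Klf9 by 0.55 (SE 0.225), Apoa1 by -0.62 (SE 0.413) and Plin2 by -0.69 (SE 0.285), each without overlap. Mt1 (1.69), Fasn (1.15), Cyp7a1 (1.11), Thrsp (0.75), Apob (-0.22), Alas1 (-0.34), Hr (-0.52), Cyp8b1 (-0.77) and Tbl1xr1 (-0.78) overlapped in that comparison.

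Markers of other liver cells were also described by lists, with 0 past the adjusted threshold. Of 9 macrophage markers 8 were above 0 in drug minus control and 7 in model minus control, with medians of 0.59 and 0.91 and array scores (mean log2 signal about each gene's mean) of -0.21 to 0.62 in drug, -0.07 to 0.86 in model and -0.88 to -0.10 in control livers. Of 6 sinusoidal endothelium markers, 0 were above 0 in drug minus model, with a median of -0.54 and scores of -0.46 to -0.08 in drug and -0.03 to 0.44 in model livers. The stellate cell scores spanned -0.58 to 0.16 in drug, -0.45 to 0.66 in model and -0.23 to 0.32 in control livers, and those of the 3 tested bile duct markers -0.33 to 0.36, -1.29 to 0.59 and 0.01 to 0.38. Several receptors here, such as Nr1h3, Nr2f2, Pparg and Rarb, are expressed in these cells as well as in hepatocytes. The part of such cells in the results was not tested.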

How the data were processed

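The authors deposited 1 table of linear signal intensities, 1 value per probe set and array; the submitters' processing notes name GCOS 1.2, with its role and settings not given in the sources used here, and total RNA was labelled with biotin by the maker's protocol, per the labels. The table held 31099 probe sets; 57 control probe sets were left out, and 20826 of the others had 1 gene symbol in the platform annotation, 436 several and 9780 none here. The deposited intensities were not on a common scale (2% trimmed means of 33.2 to 80.4), so log2 values were quantile normalized, which removes any true difference in total RNA. Probe sets at or above the 40th percentile of the mean entered a linear model (limma 3.58.1 under R 4.3.3, moderated with an intensity trend) with 1 term per group over all 9 arrays, two-sided, adjusted over all 18625. The fit was run on simulated data with independent noise, unlike these arrays, which checks the computation and not the results. The number of arrays limits precision, and an exact permutation of 3 against 3 cannot give a p under 0.1. No pair of arrays was a duplicate (correlations of 0.789 to 0.928).

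The receptors, the lists and the tests were chosen with earlier results of these data known. A receptor is given with every array where it had an unadjusted p under 0.05 or no overlap in a comparison; Rxra, Ppara and Nr2f1, and further probe sets of Hnf4a, Nr2f2, Nr2f6, Nr5a2, Rxrg, Thra and Thrb, were added after their values were seen. Of each other list the 2 genes with the smallest unadjusted p per comparison are named, and Cyp3a2 was added after its values were seen. The alternatives changed the scaling (none, median centring, trimmed mean), added 16 signal units ahead of the log, dropped the filter or raised it to the 60th percentile, dropped the trend, fitted the compared groups alone, took the replicate number as a block, added the log2 Gapdh ratio as a term, averaged the probe sets of each gene, or left out arrays singly or as the pairs control 2 with drug 3 and control 1 with drug 1. The alternatives for the other lists and their genes were added after seeing the data.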

Additional observations from a re-analysis of the deposited data

How the results depend on the processing

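Over 22 alternatives (21 for the 6 receptors dimmer than the 60th percentile), 0 nuclear receptors passed the adjusted threshold in each comparison. Of the 28 tested, the direction held under all alternatives for 10 in model minus control, 15 in drug minus model and 12 in drug minus control, among them Nr1h2 and Nr4a3 in the first, and Nr0b2 and Nr1i3 in the others (1.503 to 2.92 for Nr0b2 in drug minus control, 1.52 to 2.26 in drug minus model). Some alternatives cannot move a difference and so are no check on direction. These are the changes of filter, trend or block, the compared groups alone, and single omissions from the group not compared. The median of the list in model minus control was -0.409 without normalization (all probe sets -0.40), 0.15 with the trimmed mean (all 0.16) and -0.087 to 0.164 with 1 array left out, the highest without model 1. In drug minus control it was -0.405 without normalization (all -0.36), -0.116 with median centring (all -0.07) and -0.098 with the Gapdh term. Without control 2 and drug 3, the genes of the 28 at a limma unadjusted p under 0.05 numbered 1, 2 and 1 in model minus control, drug minus model and drug minus control. Of all probe sets 6.97%, 2.38% and 2.39% were there. Without control 1 and drug 1 the genes numbered 1, 2 and 3, beside 12.6%, 4.68% and 14.8% of all probe sets. Among all probe sets, model minus control had 0 calls in the reported fit, 1 without normalization (Fmo1), 1 without control 1 and drug 1 (Fmo1), 3 with the replicate block (Scd, Thumpd3-as1 and Siglec5) and 0 to 1 with 1 array left out (1 without control 1, without model 1 or without model 2). Drug minus model had 1 with only the groups compared, 1 without control 1 and drug 1, and 0 to 1 with 1 array left out, each time Fmo1. The cause was not tested. Arrays with the same replicate number correlated in their deviations from the group means at -0.005 to 0.482, and 3 of 9 arrays matched their own number best. The highest values were 0.482 for control 1 with drug 1 and 0.389 for model 1 with drug 1. Whether the numbers stand for a pairing or a batch was not tested. With the replicate block 0 receptors passed in each comparison. The share of all probe sets at a limma unadjusted p under 0.05 was then 19.5%, 5.81% and 12% in model minus control, drug minus model and drug minus control. In the reported fit it was 12.1%, 3.28% and 7.22%. Array values carry no depth, and signals near the filter level have sizes that depend on the offset.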
